A study of Mus musculus with 18 samples.

Results

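SIRT1 is a deacetylase that uses NAD+ as its cosubstrate and removes acetyl groups from histones and from transcription factors and coactivators. In the liver its known substrates include PGC-1α, FOXO1, SREBP-1, LXR, p53 and the p65 subunit of NF-κB, through which it acts on glucose production, fatty acid oxidation, sterol handling and inflammation. Caloric restriction (CR) is a diet whose effects SIRT1 has often been linked with. The livers described here came from mice that carried 1 intact copy of the Sirt1 gene (SIRT1+/-) and from SIRT1+/+ mice with both copies, all fed ad libitum (AL), and the comparison asks what the loss of 1 copy changed in the liver transcriptome without any restriction of food.

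The members were the 5 AL libraries whose labels give the genotype SIRT1+/+ (n = 3) or SIRT1+/- (n = 2), out of 18 liver libraries of the series. The animals were C57BL/6J mice of a Sirt1 knock-out line, which the labels call male and the study's methods male or female. Diets began at 2 to 5 months of age per the labels, and the livers were taken at 13 to 16 months. The remaining libraries came from AL SIRT1-/- mice (n = 4), which have no intact copy, and from SIRT1+/+, SIRT1+/- and SIRT1-/- mice kept on 40% less food (CR, n = 3 each). No label says whether replicates are separate litters or cages, and the study's methods say that the mice were caged singly. The limma p-values below measure a spread within groups that is pooled over all 18 libraries. The median SD over genes was 0.152 in AL SIRT1+/+ and 0.114 in AL SIRT1+/- livers, and 0.181 to 0.226 in the other groups. RNA was hybridised to Illumina MouseRef-8 beadchips, and every value below is a log2 signal scaled so that all arrays share the same mean and spread, in which 0 is the array's mean and a difference of 1 is about 2-fold. A negative level is therefore a dim probe and not a negative quantity.

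In the 5 AL libraries, 10726 to 11058 of 25697 probes were detected, and 8950 named genes were tested. Across those genes, pairs of SIRT1+/+ libraries correlated at 0.982 to 0.987, the pair of SIRT1+/- libraries at 0.986 and pairs across genotypes at 0.980 to 0.990, so the genotypes overlapped in their whole profiles. AL SIRT1+/+ replicate 3 had the highest median signal of the 5 arrays (75 against 59.3 to 63.7) and the lowest top value after scaling (7.98 against 8.54 to 8.91). All 5 livers showed more of the Y-linked transcript Eif2s3y than of Xist, the RNA that coats the silenced X, whereas Xist was the higher of the pair in 2 of 4 AL SIRT1-/- livers, 2 of 3 CR SIRT1+/+ livers, 1 of 3 CR SIRT1+/- livers and 2 of 3 CR SIRT1-/- livers. By these transcripts the AL comparison of SIRT1+/- with SIRT1+/+ was within 1 sex, and the comparisons with the other groups were not.

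The genotype of 1 library outside the 5 is in doubt and bears on them. Z values tabulated by the study were met better with AL SIRT1-/- replicate 1 placed among the AL SIRT1+/- livers than where its label puts it. The counts behind this are not given here. Its male-biased genes were low, at a mean level of 2.06, as in the other AL SIRT1-/- livers (1.10 to 1.70) and unlike the SIRT1+/- livers (4.38 and 4.39). The label was kept here, so AL SIRT1+/- means the pair so labelled. Counting that library as a further SIRT1+/- liver, a choice made after seeing the data, left 0 genes called by limma (176 had an unadjusted p under 0.05). All 36 named gene results had the same sign, but most of these genes were picked from the 5 libraries that this choice keeps. The same sign is therefore no separate evidence, and the larger shifts are given beside the genes concerned.

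No gene was called different between SIRT1+/- and SIRT1+/+ livers on AL. With limma and Benjamini-Hochberg adjustment over 8950 genes, 0 genes were called higher (0%) and 0 lower (0%) at an adjusted p under 0.05. The smallest adjusted p was 0.512, for Serpina12, and the next was 0.9999. At an unadjusted p under 0.05 there were 99 genes (1.11%), 36 of them higher (0.402%) and 63 lower (0.704%) in SIRT1+/- livers. That share was below the share of 0.05 that such p-values would give where no gene differs. The spread pooled over all groups was used, and with only the compared groups in the fit the count was 253, with 0 called. The lack of called genes therefore does not show that the genotypes are equal. Both SIRT1+/- libraries lay above all 3 SIRT1+/+ libraries for 650 genes (7.26%) and below all 3 for 971 genes (10.8%). Differences were small for most genes, with a median size of 0.11 and a median standard error (SE) of 0.20. The median 95% interval reached 0.42 to either side of the difference, and for 90% of genes no more than 0.78, so for most genes the interval was narrower than a 2-fold change (a log2 difference of 1) to either side.

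**Figure D1:**
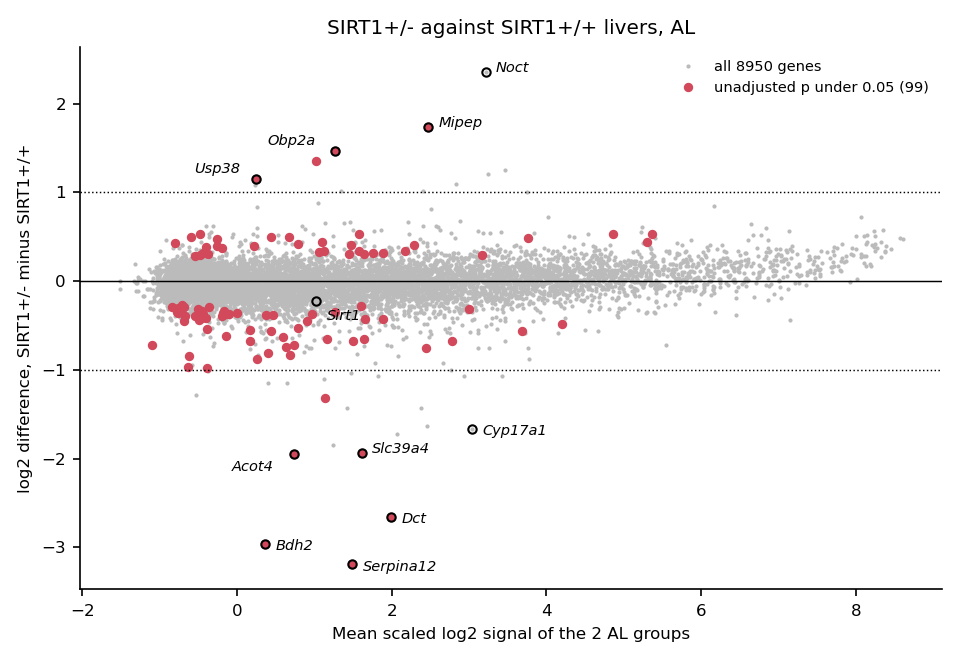
Each grey point is 1 of 8950 genes, with the mean scaled log2 signal of the AL SIRT1+/+ and AL SIRT1+/- groups on the x axis and the log2 difference, SIRT1+/- minus SIRT1+/+, on the y axis. Most genes lie close to 0, 34 genes differ by more than 1, and none passed an adjusted p of 0.05.

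The targeted gene came first. Sirt1 signal was 1.16, 1.07 and 1.17 in the SIRT1+/+ livers and 0.86 and 0.96 in the SIRT1+/- livers. Both heterozygous livers lay below all 3 wild-type livers, and the difference was small, at -0.22 (SE 0.23, 95% interval -0.72 to 0.27, 1.17-fold lower, adjusted p 0.9999 by limma). An exact permutation test of the 2 against 3 libraries gave p = 0.1, two-sided, which is the smallest p that 10 arrangements allow. The CR livers, which share no library with the AL livers, gave a difference of -0.28, and over both diets together the difference was -0.25 (exact permutation within diet, p = 0.09 of 200 arrangements). In AL SIRT1-/- livers the same probe read 0.92, 1.14, 0.89 and 1.23, overlapping with the livers of both other AL genotypes. Where this probe lies relative to the targeted exons was not given in the sources used here, so its signal checks neither the labels nor the amount of functional transcript.

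The 20 tested genes next to Sirt1 on chromosome 10, 10 on each side in gene order, were given beside it because they lie closest to the targeted locus. Of these, 6 had a higher and 14 a lower mean in SIRT1+/- livers, with a median difference of -0.07 and a range from -0.59 for Pbld1 to 0.21 for Rufy2. None had an unadjusted p under 0.05.

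The other sirtuins, which share the NAD+-dependent catalytic core, were given for all that passed the detection filter. Sirt2, the mainly cytoplasmic tubulin deacetylase, read 1.27, 1.02 and 1.15 in SIRT1+/+ and 0.98 and 0.96 in SIRT1+/- livers (difference -0.18). Sirt3, the main mitochondrial deacetylase, read 4.60, 4.46 and 4.64 against 4.58 and 4.96 (difference 0.20). The mitochondrial desuccinylase Sirt5 differed by -0.14 and the nucleolar Sirt7 by -0.07. None of these genes had an unadjusted p under 0.05, and only Sirt2 had both SIRT1+/- livers below all SIRT1+/+ livers.

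Serpina12 showed the largest difference of the 8950 genes. It encodes vaspin, a serine protease inhibitor secreted by adipose tissue and liver, and its signal was 3.80, 2.19 and 3.28 in SIRT1+/+ livers and 0.75 and -0.96 in SIRT1+/- livers. Each heterozygous liver lay well below each wild-type liver, and the gene was detected above background in all 3 wild-type and in 1 of 2 heterozygous livers. The difference was -3.19 (SE 0.58, 95% interval -4.43 to -1.96), with an unadjusted p of 5.72e-05 and an adjusted p of 0.512 in the limma fit, and since 1 of the 2 heterozygous values was at background its size is not exact. With AL SIRT1-/- replicate 1 counted as SIRT1+/- the difference was -3.54 (limma adjusted p 0.0883). A second, dimmer Serpina12 probe, detected in all 5 livers, read 0.13, 0.70 and 1.14 against 0.01 and 0.37, a difference of -0.46 in the same direction with overlapping groups, and the mean of both probes differed by -1.83. In AL SIRT1-/- livers the gene read -1.15, -0.46, -1.22 and -1.27, so 1 heterozygous liver (0.75) lay between the wild-type and null livers and the other (-0.96) within the range of the null livers. That null comparison uses the same 3 wild-type livers, and its difference was -4.11 (limma adjusted p 0.00065). Of the male-biased liver genes, among which Serpina12 is counted, 16 of 22 had higher and 6 lower means in SIRT1+/- livers.

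The stretch of 250 bases before the annotated Serpina12 start is shown as the context of the gene with the largest difference, from RefSeq on build GRCm38.p6 (chr12:104044444-104044693, minus strand), with a CCAAT box in capitals, a motif that starts 143 bases before the gene's start.
Serpina12: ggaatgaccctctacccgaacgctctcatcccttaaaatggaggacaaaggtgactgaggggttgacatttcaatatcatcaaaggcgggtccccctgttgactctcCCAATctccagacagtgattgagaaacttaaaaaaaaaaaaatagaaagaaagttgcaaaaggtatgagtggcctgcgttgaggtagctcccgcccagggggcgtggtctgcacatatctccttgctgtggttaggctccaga
CCAAT, searched on both strands, occurs in 33.8% of 32851 such promoter windows, and the match is a description of the sequence only.

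Transporter and enzyme genes were among the other genes with lower levels in SIRT1+/- livers, none of them called. Slc39a4, which encodes the zinc importer ZIP4, read 3.81, 2.02 and 1.90 in SIRT1+/+ and 1.04 and 0.24 in SIRT1+/- livers. By the choice of genes the groups did not overlap. The difference was -1.93 (SE 0.63, 95% interval -3.27 to -0.60, 3.82-fold lower, unadjusted p 0.00738 and adjusted p 0.9999 by limma). The AL SIRT1-/- livers read 3.31, 3.98, 4.00 and 2.75, a difference of 0.93 from the same wild-type livers and thus of the other sign. A second Slc39a4 probe, detected in 1 of 5 livers, differed by -0.59, and with AL SIRT1-/- replicate 1 counted as SIRT1+/- the difference was -1.05. Acot4, a peroxisomal thioesterase that acts on succinyl-CoA, read 2.07, 1.14 and 1.94 against 0.63 and -1.11 (difference -1.95, SE 0.74, unadjusted p 0.0185). The second of those heterozygous livers was not detected above background, and both lay below every wild-type liver. In AL SIRT1-/- livers Acot4 differed from the wild-type livers by 0.40, which is of the other sign. Bdh2, a cytosolic hydroxybutyrate dehydrogenase, was undetected in SIRT1+/+ replicate 1 (-1.22) and in both SIRT1+/- livers (-1.14 and -1.09) but read 2.77 and 3.98 in the remaining wild-type livers. Its groups thus overlapped, and a lower bound from the background gave at least 5.45-fold lower (unadjusted p 0.0204). Dct, an enzyme of melanin synthesis, read 2.77, 3.01 and 4.2 against 2.42 and -1.09, so that 1 heterozygous liver carried most of its difference of -2.66 (unadjusted p 0.0343). Cyp17a1, which makes the precursors of sex steroids, had the same form, with 3.56, 3.75 and 4.30 against 0.48 and 3.93 (difference -1.67).

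Regulators, receptors and immune genes were also among the genes with lower levels, none of them called. Gvin1, a very large GTPase induced by interferon, read -0.34, -0.04 and 0.67 in SIRT1+/+ and -0.98 and -0.78 in SIRT1+/- livers, in neither of which it was detected, and was at least 1.62-fold lower (unadjusted p 0.000718). Cd163, the haemoglobin scavenger receptor of macrophages, read 0.47, 1.29 and 0.33 against 0.04 and -0.41 (difference -0.88, SE 0.32, unadjusted p 0.0141). Vegfc, a growth factor for lymphatic endothelium, read 0.04, 0.55 and 0.93 against -0.22 and -0.11 (difference -0.67, SE 0.25, unadjusted p 0.0157). These 3 genes were picked from genes in which both heterozygous livers lay below every wild-type liver. In AL SIRT1-/- livers the difference from the wild-type livers was -0.56 for Gvin1, -0.17 for Cd163 and -0.13 for Vegfc. Bhlhe40, a transcriptional repressor of the circadian system, read 4.08, 3.87 and 3.94 against 3.41 and 3.38, a difference of -0.57 with little spread in either group (SE 0.26, unadjusted p 0.0448). Egr1, an immediate early transcription factor, differed by -1.04 (1.44, 2.06 and 2.46 against 0.78 and 1.12). The nuclear receptor gene Esrrb was undetected in both heterozygous livers, and so was the Golgi membrane protein gene Yipf4, with bounds of at least 1.32-fold and 1.37-fold lower. The same held for Pacrgl (at least 1.1-fold) and the ETS factor Gabpa (at least 1.24-fold). The zinc finger gene Zfp868 differed by -0.54 by its brighter probe, undetected in both heterozygous livers, and by -0.21 by a probe detected in 4 of 5 livers, and the first value was -0.30 with AL SIRT1-/- replicate 1 counted as SIRT1+/-. Ggt6, of the gamma-glutamyltransferase family, was detected in all 5 livers and differed by -0.39.

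Genes with higher levels in SIRT1+/- livers were led by a deubiquitinase and a mitochondrial protease. Usp38, which removes ubiquitin from proteins, read -0.48, 0.07 and -0.57 in SIRT1+/+ and 0.76 and 0.88 in SIRT1+/- livers. It too was picked from genes without overlap. The difference was 1.15 (SE 0.26, 95% interval 0.59 to 1.70, 2.21-fold higher, unadjusted p 0.00047 and adjusted p 0.9999 by limma). The other Usp38 probes were detected in none of the 5 livers and differed by 0.06 and -0.15. In AL SIRT1-/- livers Usp38 differed from the wild-type livers by 0.47. Mipep, which encodes the peptidase that trims proteins imported into the mitochondrial matrix, read 1.18, 0.81 and 2.83 against 3.36 and 3.32 (difference 1.74, SE 0.46, 95% interval 0.76 to 2.71, unadjusted p 0.00172). The third wild-type liver stood nearer to the heterozygous livers than to its own group, and without it the difference was 2.35 (limma adjusted p 0.0552). Mipep read 2.46 to 3.4 in AL SIRT1-/- livers and 2.88 to 3.55 in CR SIRT1+/+ and CR SIRT1+/- livers. In CR SIRT1-/- livers it read 3.10, 1.96 and 2.76. The lowest values were thus those of AL SIRT1+/+ replicates 1 and 2.

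Several genes with small differences also had little spread within each group, which a choice by small p favours. Cited2, which binds the coactivators CBP and p300, read -0.52, -0.50 and -0.47 in SIRT1+/+ and -0.08 and 0.03 in SIRT1+/- livers (difference 0.47, SE 0.15, unadjusted p 0.00533, and 0.21 with AL SIRT1-/- replicate 1 counted as SIRT1+/-). In AL SIRT1-/- livers Cited2 was not detected, and it differed from the wild-type livers by -0.32, which is of the other sign. Hipk2, a kinase of p53, read 0.47, 0.36 and 0.44 against 1.01 and 0.83 (difference 0.50, SE 0.19, unadjusted p 0.0183). Both genes were picked by small p from genes without overlap between the genotypes, so their separation was fixed by the choice. The proteasome subunit gene Psmd2 differed by 0.33 and the seryl-tRNA synthetase gene Sars by 0.33. The actin-capping gene Capg differed by 0.37 and Syngr2, which encodes a vesicle membrane protein, by 0.31. These genes were all picked in the same way. A second Sars probe, detected in 4 of 5 livers, differed by 0.07 and overlapped (-0.69, -0.04 and -0.30 against -0.20 and -0.36). The other probes of Mipep, Psmd2, Capg, Gvin1, Pacrgl, Cd163 and Nfe2l2 were detected in none of the 5 livers. Syngr2 was read by 3 probes, which differed by 0.25 to 0.32. Zfp869, a zinc finger gene, read -0.25, 1.23 and 0.06 against 2.13 and 1.28 (difference 1.36, SE 0.52, unadjusted p 0.0203, and 0.67 with AL SIRT1-/- replicate 1 counted as SIRT1+/-). Olfr1197, an olfactory receptor gene detected in none of the wild-type livers and in 1 of the heterozygous livers, was at least 1.01-fold higher. Nfe2l2, which encodes the antioxidant transcription factor NRF2, read 1.83, 0.98 and 1.11 against 1.81 and 1.87, so that it overlapped in 1 wild-type liver (difference 0.53, unadjusted p 0.0407, and 0.33 with AL SIRT1-/- replicate 1 counted as SIRT1+/-).

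**Figure D2:**
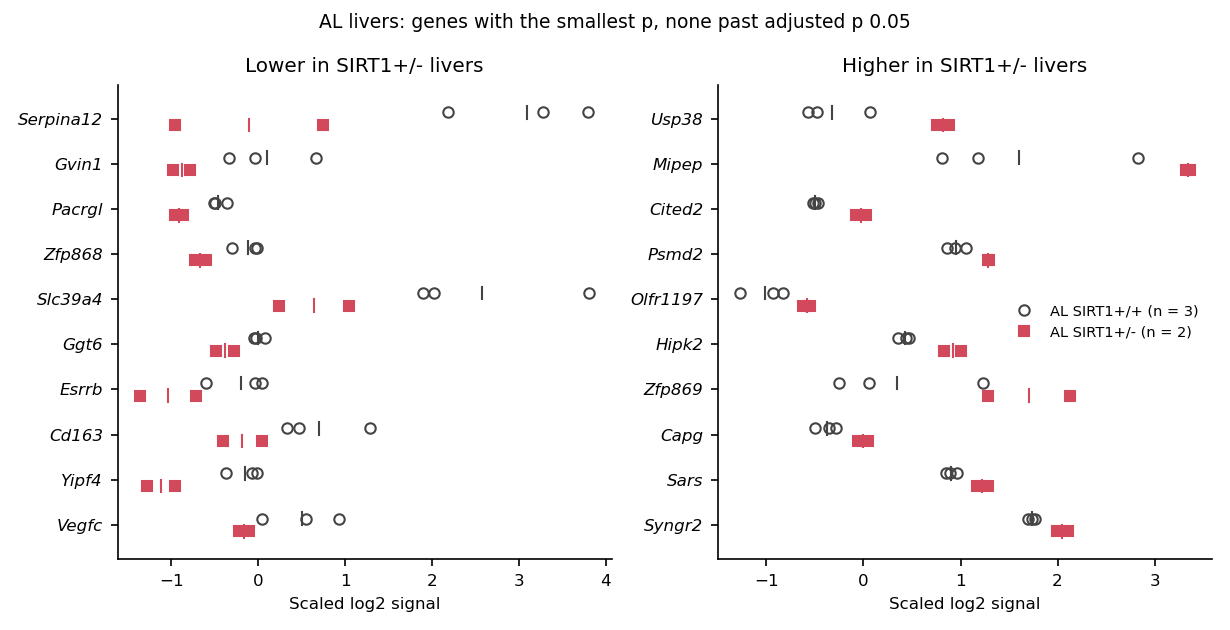
Scaled log2 signal (x axis) in each AL SIRT1+/+ library (open circles, n = 3) and AL SIRT1+/- library (filled squares, n = 2) for the 10 non-overlapping genes with the smallest p in each direction. Vertical ticks are group means. The largest differences of means are those of Serpina12, Slc39a4 and Mipep, and none of the genes passed an adjusted p of 0.05.

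Larger differences mostly went with wide spread inside a group. Of the 34 genes (0.38%) whose means differed by more than 1, 12 were higher and 22 lower in SIRT1+/- livers. Libraries of 1 genotype lay more than 1 apart for 10 of the 12 and for 19 of the 22. Over all 8950 genes, each pair of libraries of 1 genotype lay more than 1 apart for 139 to 209 genes. The genotypes did not overlap for 7 of the 12 and 14 of the 22. Choosing genes by a large difference of so few libraries favours both wide spread and lack of overlap. Noct, a circadian gene that encodes the phosphatase nocturnin, had the largest higher mean. It read 3.93, 2.86 and -0.70 in SIRT1+/+ and 4.30 and 4.49 in SIRT1+/- livers, and its difference of 2.36 had an interval from -0.96 to 5.68. Fgf21, the fasting-induced liver hormone, read 1.86, 2.83 and 2.14 against 2.72 and 4.03 (difference 1.10, unadjusted p 0.151). Acot1, a cytosolic acyl-CoA thioesterase, read 3.47, 2.03 and 3.03 against 3.49 and 4.69 (difference 1.25). In both genes the 4.03 and 4.69 of SIRT1+/- replicate 2 stood apart. The odorant-binding protein gene Obp2a likewise read 3.04 in SIRT1+/- replicate 1 alone, against 0.15 to 1.00 in the wild-type livers and 0.94 in the other heterozygous liver. Group means more than 2 apart were found for 4 genes, which were Serpina12, Bdh2, Dct and Noct.

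Irs2, the hepatic insulin receptor substrate that the study names, did not separate the AL genotypes. It read 1.61, 0.22 and 1.84 in SIRT1+/+ and 1.08 and 1.51 in SIRT1+/- livers, a difference of 0.07 (95% interval -1.03 to 1.17, and 0.74 with AL SIRT1-/- replicate 1, at 3.30, counted as SIRT1+/-), whereas the AL SIRT1-/- livers read 2.80 to 3.5. The difference of the null livers from the same wild-type livers was 1.88 (limma adjusted p 0.0957).

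Most pathways in which SIRT1 substrates act had medians close to that of all genes, which was -0.02. Fatty acid oxidation and ketogenesis lay furthest from it among the lists of this paragraph. No list had a member called by limma. Of 13 gluconeogenic genes, 4 had higher and 9 lower means in SIRT1+/- livers (median -0.03), with Ppargc1a, the gene of PGC-1α, at 0.96, 2.12 and 1.95 against 1.26 and 1.32, and G6pc, glucose-6-phosphatase, at 4.79, 5.48 and 4.61 against 5.34 and 3.95. Both genes overlapped between the genotypes. Of 32 genes of fatty acid oxidation and ketogenesis, 22 had higher and 10 lower means (median 0.15), and Ppara, the fasting regulator, read 2.65, 2.06 and 2.34 against 2.69 and 2.87 (difference 0.43). Of 27 genes of fatty acid and triglyceride synthesis, 15 were higher and 12 lower (median 0.02), with Srebf1 at 0.05 and Fasn, fatty acid synthase, at -0.14. Of 19 genes of cholesterol synthesis and uptake, 7 were higher and 12 lower (median -0.10). Bile acid genes and targets of LXR and FXR had 13 higher and 9 lower means of 22 (median 0.08), and Cyp7a1, the rate-limiting enzyme of bile acid synthesis, read 6.42, 3.70 and 4.53 against 4.64 and 4.99. The LXR targets Abcg5 and Abcg8, which form the sterol exporter of the canalicular membrane, differed by 0.23 and 0.49. The 28 substrates and partners of SIRT1 themselves had 12 higher and 16 lower means (median -0.05), and 21 genes of NAD synthesis and use had 11 and 10 (median 0.01), with Nampt, the rate-limiting enzyme of NAD+ salvage, at 0.53, -0.05 and 0.42 against -0.23 and 0.11.

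Stress, clock and inflammation lists were also mixed. NRF2 and antioxidant genes had 12 higher and 6 lower means of 18 (median 0.13), although Nqo1 and Gclc, 2 targets of NRF2, differed by -0.14 and -0.13. Of 24 genes of endoplasmic reticulum stress, 16 were higher and 8 lower (median 0.12), and their mean log2 level was 2.76 in both SIRT1+/- livers and 2.60 to 2.73 in SIRT1+/+ livers, while their summed linear level overlapped (682 to 700 against 515 to 719). Circadian genes divided into 10 higher and 10 lower of 20 (median -0.02), and within genotypes they varied widely, as for Dbp, a clock output gene, at 5.82, 2.92 and 5.35 against 4.07 and 5.58. Of 12 immediate early genes, 3 were higher and 9 lower (median -0.14), with a mean log2 level of 1.09 to 1.11 in SIRT1+/- and 1.15 to 1.35 in SIRT1+/+ livers, and a summed linear level that overlapped (37.6 to 47.0 against 37.1 to 44.7). NF-κB and inflammatory genes had 6 higher and 10 lower means of 16 (median -0.09), and acute-phase genes 14 and 11 of 25 (median 0.03). Mitochondrial genes were divided into 19 and 17 of 36 (median 0.00436), and autophagy genes into 12 and 12 of 24 (median -0.00813).

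The list medians furthest below that of all genes belonged to genes of non-parenchymal and immune cells. In whole liver, fewer cells of a type and less RNA per cell cannot be told apart. Of 33 interferon-stimulated and antigen presentation genes, 5 had higher and 28 lower means in SIRT1+/- livers (median -0.26), where 4061 of all genes were higher and 4889 lower. For 4 of the 33, Irf7, Ifi47, Irgm1 and Gbp2, both heterozygous livers lay below every wild-type liver, a share near the 10.8% of all genes. Irgm1, an interferon-induced GTPase, read 5.08, 5.15 and 5.15 against 4.67 and 4.95. Of 13 Kupffer cell and macrophage markers, 1 was higher and 12 lower (median -0.32), with Adgre1, the F4/80 antigen, at 0.26, 0.51 and 1.59 against 0.00 and 0.23. AL SIRT1+/+ replicate 3 was the highest of the 5 libraries in the macrophage list, and in class II genes of the interferon list, as in Cd74, the class II invariant chain (2.81, 3.23 and 4.83 against 3.06 and 3.30), and H2-Ab1 (2.93, 2.80 and 4.74 against 2.88 and 2.60). Without that library the medians were -0.16 for the interferon list and -0.08 for the macrophage list. The mean level over the macrophage markers was 0.99 to 1.93 in SIRT1+/+ and 1.07 to 1.15 in SIRT1+/- livers, so the groups overlapped. On the linear scale the summed macrophage level was 42.9 to 101 in SIRT1+/+ and 47.5 to 51.6 in SIRT1+/- livers. The part of macrophage content in the lower Cd163 signal was not tested.

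The endothelial list moved less with the choice of library. Of 12 markers, 2 were higher and 10 lower (median -0.22, and -0.30 to -0.15 when any 1 AL library was left out), and their mean log2 level was 1.15 to 1.21 in SIRT1+/- and 1.27 to 1.49 in SIRT1+/+ livers, without overlap, while their summed linear level overlapped (63.4 to 72.3 against 64.2 to 78.1). Cdh5, the endothelial cadherin, read 0.05, 0.08 and 0.08 against -0.20 and -0.30. Lyve1, the hyaluronan receptor of sinusoidal endothelium, was detected in 1 of 3 wild-type and none of the heterozygous livers, and read -0.87, -1.10 and -0.22 against -1.49 and -1.43 (unadjusted p 0.0299). Of 14 stellate cell markers, 3 were higher and 11 lower (median -0.15), and all 6 lymphocyte markers were lower (median -0.09).

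Hepatocyte and erythroid lists lay on the other side. Of 11 hepatocyte markers, 10 were higher and 1 lower in SIRT1+/- livers (median 0.38), and of 14 pericentral markers 10 were higher and 4 lower (median 0.24), while 12 periportal markers had 4 higher and 8 lower means (median -0.13). The albumin gene Alb went the other way (-0.69, -0.32 and -0.09 against -0.73 and -0.76, difference -0.38), by a probe detected in 2 of 5 livers. Apoa1, the main protein of high-density lipoprotein, read 8.34, 7.88 and 7.34 against 8.35 and 8.38, and Ttr, transthyretin, read 8.39, 8.0 and 7.26 against 8.33 and 8.49. The low value of both was that of AL SIRT1+/+ replicate 3, the array with the lowest top value after scaling, and with quantile normalization the hepatocyte median was 0.08. The alpha-globin gene Hba-a1 behaved likewise, with 7.77, 8.23 and 7.09 against 8.45 and 8.40, and 5 of 6 erythroid and platelet markers were higher (median 0.29).

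Male-biased liver genes, which depend on the male pattern of growth hormone release, had similar values in the AL SIRT1+/- and SIRT1+/+ livers. Their mean level was 4.38 to 4.39 in SIRT1+/- and 4.16 to 4.58 in SIRT1+/+ livers, against 1.10 to 2.06 in AL SIRT1-/- livers. Cyp4a12a, a male-specific fatty acid hydroxylase, read 7.27, 6.64 and 6.94 in SIRT1+/+, 7.01 and 7.39 in SIRT1+/-, and -0.81 to -1.24 in SIRT1-/- livers. Elovl3, a fatty acid elongase, read 1.89, 2.41 and 1.34 in SIRT1+/+ and 2.63 and 2.47 in SIRT1+/- livers (difference 0.67, unadjusted p 0.139). The low level in null livers included the pair with more Eif2s3y than Xist. With AL SIRT1-/- replicate 1 counted as SIRT1+/-, the median difference of this list turned from 0.17 to -0.37. Among the 6 male-biased genes with lower means in SIRT1+/- livers were Serpina12 and Sult1c2, a sulfotransferase (difference -0.46). For these 2 of the 22 tested members both heterozygous livers lay below every wild-type liver, a share near the 10.8% of all genes. Female-biased genes had 9 higher and 5 lower means of 14 (median 0.03).

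**Figure D3:**
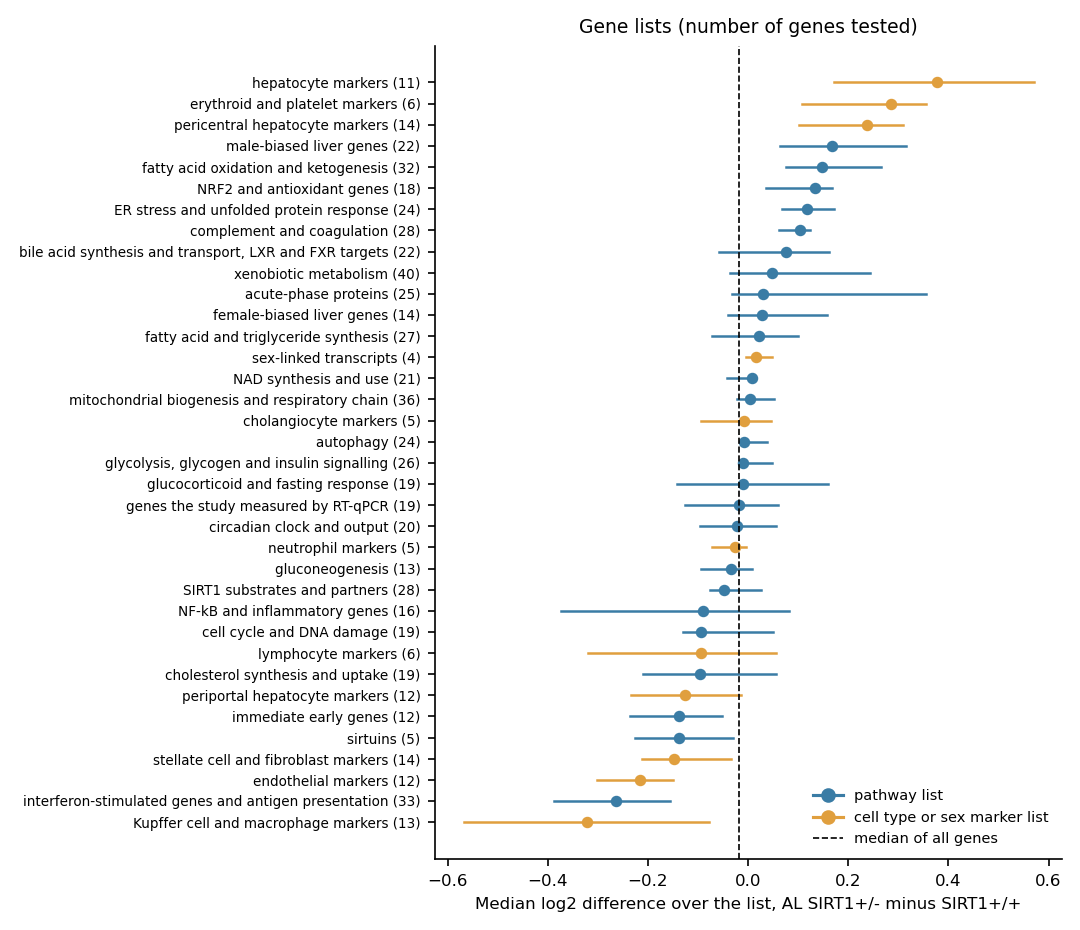
Median log2 difference, AL SIRT1+/- minus AL SIRT1+/+ (x axis), of each gene list (y axis, number of genes tested in parentheses), with lines from the lowest to the highest median when 1 of the 5 AL libraries is left out and a dashed line at the median of all genes. Hepatocyte markers (0.38) and macrophage markers (-0.32) lie at the ends, and the macrophage line reaches -0.08.

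The same genotypes were compared on CR, where none of the AL libraries is used again. On CR, 0 of 8950 genes were called by limma between SIRT1+/- and SIRT1+/+ livers, and 400 had an unadjusted p under 0.05. Over all genes, 57.8% (5172) had the same sign on both diets, and across genes the AL and CR differences had a Pearson r of 0.155 and a Spearman rho of 0.212, given as a description since genes are not independent and the CR libraries mix both patterns of Xist and Eif2s3y. Of the 99 genes with an unadjusted p under 0.05 on AL, 63 (63.6%) had the same sign on CR, near the share of all genes. Of the 400 genes with an unadjusted p under 0.05 on CR, out of 8950, 268 had the sign they had on AL. The p-values of both diets come from 1 limma fit with 1 variance per gene, so they are not independent. Unadjusted p was under 0.05 on both diets for 7 of the 99, all with the same sign. Among them were Usp38, which read -0.81, -0.54 and -0.62 in CR SIRT1+/+ and 0.32, -0.43 and 0.33 in CR SIRT1+/- livers (difference 0.73), and Syngr2, with 1.45, 1.43 and 1.38 against 1.58, 1.72 and 1.91 (difference 0.32). On CR both genes had every SIRT1+/- liver above every SIRT1+/+ liver. On AL that order was fixed by the choice of genes, and the share of all genes with it on CR is not given here. Lyve1 was lower on CR too, by -0.80, with 0.56, -0.60 and -0.46 against -1.06, -1.10 and -0.73. The share of same signs was 56% among the 650 genes with both AL SIRT1+/- livers on top and 65.7% among the 971 with both below.

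**Figure D4:**
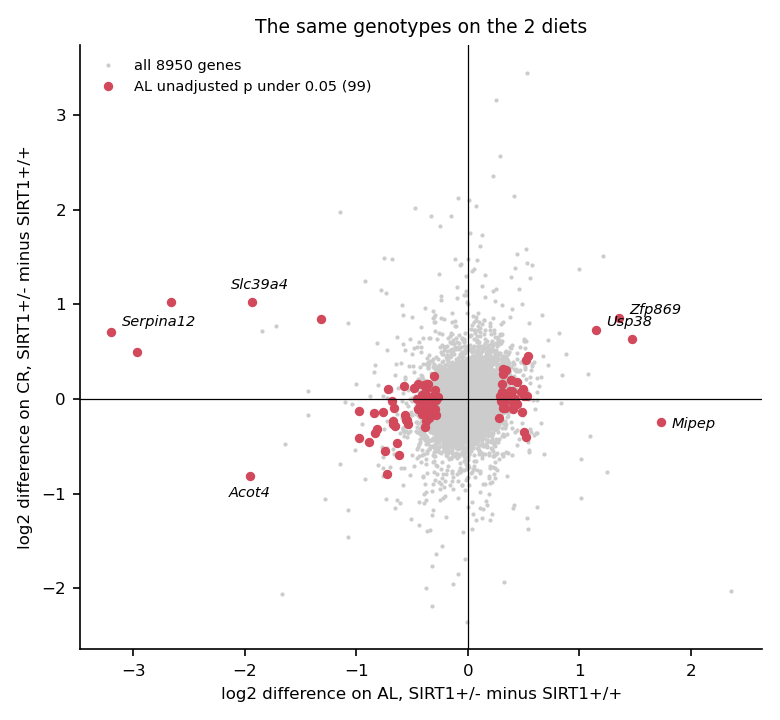
Log2 difference, SIRT1+/- minus SIRT1+/+, on AL (x axis) and on CR (y axis) for 8950 genes, with the genes of an unadjusted p under 0.05 on AL marked. The marked genes lie on both sides of 0 on the y axis, 63 of 99 with the sign they have on AL.

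A direct test of whether the genotype difference was another on AL than on CR called 0 genes (0%) by limma, with 105 at an unadjusted p under 0.05 and a smallest adjusted p of 0.9997. Serpina12 had the smallest p of this test. Its CR values were -0.76, -0.01 and 0.57 in SIRT1+/+ and 1.44, -0.45 and 0.94 in SIRT1+/- livers (difference 0.71), so every CR liver of these genotypes lay below every AL SIRT1+/+ liver, and the diets differed by -3.90 in the genotype difference (SE 0.78, unadjusted p 0.000148). Slc39a4 read 2.53, 1.06 and 3.53 against 2.98, 3.51 and 3.71 on CR, and its genotype difference was -1.93 on AL and 1.03 on CR (unadjusted p 0.00299). Mipep differed by 1.74 on AL and by -0.24 on CR (unadjusted p 0.00557), Slc51b, a bile acid exporter subunit, by 0.20 and -1.28 (unadjusted p 0.00581), and Pcdh17, a protocadherin gene, by 0.53 and -0.41 (unadjusted p 0.00598). None of these passed the adjustment.

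**Figure D5:**
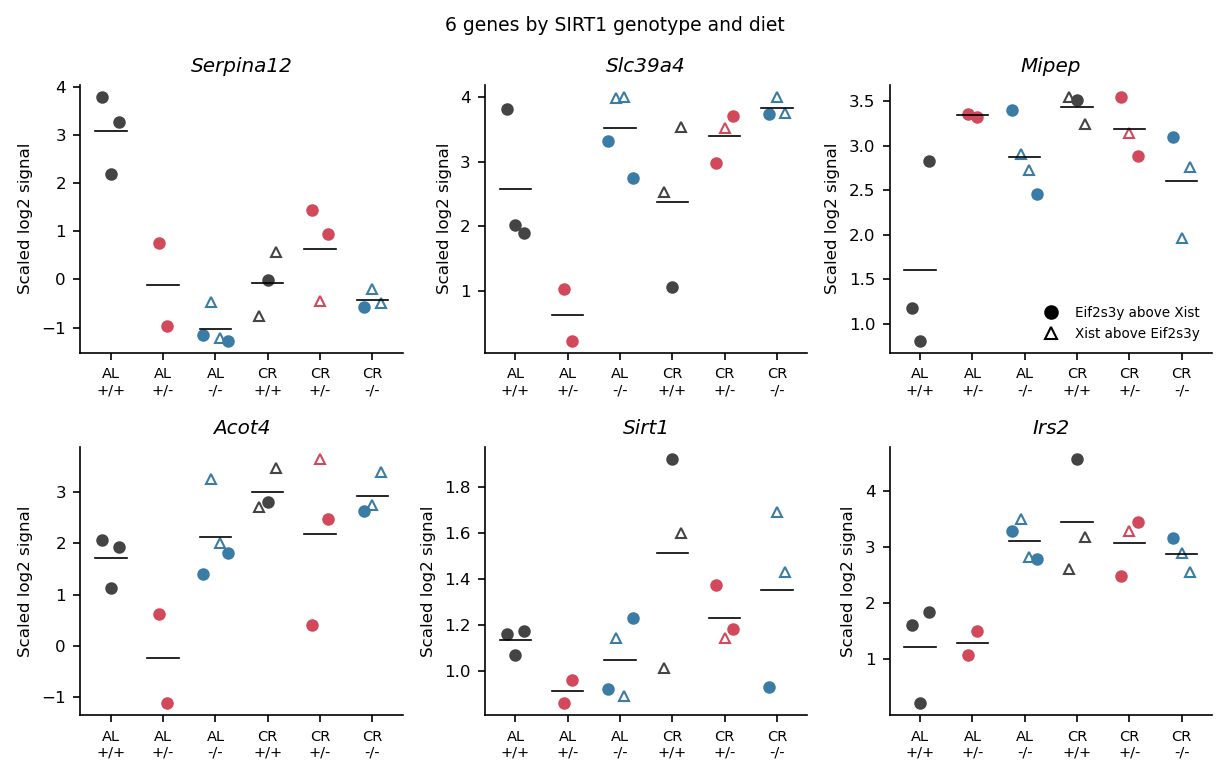
Scaled log2 signal (y axis) of 6 genes in every library of the 6 groups (x axis, diet and SIRT1 genotype), with group means as lines, and triangles for libraries in which Xist was above Eif2s3y. Serpina12 is above 2 only in the 3 AL SIRT1+/+ livers, Slc39a4 has its lowest values in the AL SIRT1+/- livers, and Irs2 has its lowest values in the AL SIRT1+/+ and AL SIRT1+/- livers.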

How the data were processed

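Liver RNA was extracted with Trizol, labelled with the Illumina TotalPrep kit and read on MouseRef-8 v2 beadchips. The authors deposited, for each of 18 libraries, the probe intensity from BeadStudio 3.4.0 without background subtraction, the detection p-value and a z-transformed score of the log10 intensity. The genome build was not given in the sources used here. The intensities were taken to log2, z-scaled within each array and multiplied by the mean SD of the arrays (1.84), which follows the normalization of the study, and the deposited score served as an alternative. Scaling to the same spread makes every level relative to its array, so a change shared by most genes would not be seen. A probe was kept where 2 or more libraries had a detection p under 0.05, and each gene symbol was represented by its brightest probe (8950 genes). Of the 33 named genes, 15 had more than 1 probe, and for 6 of these the probes differed in sign. Unnamed probes (762) were tested apart, 0 called and 12 at an unadjusted p under 0.05.

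One limma fit (version 3.58.1, R 4.3.3) of 6 group means used all 18 libraries with 12 residual degrees of freedom, so that the spread of all groups is shared, and p-values were adjusted by Benjamini-Hochberg over all genes. Where a gene was not above background in any library of a group, the fold is a lower bound against the lowest detected signal. Precision is limited by the number of arrays and by the spread of the other groups, which enters every SE. The scripts were tested on simulated data. Genes named were the 10 per direction with the smallest p among non-overlapping genes, up to 4 members of each list with an unadjusted p under 0.05, Sirt1, Irs2, the measured sirtuins and the 5 genes with the smallest p between diets. Pbld1, Rufy2, Bdh2, Dct, Noct, Cyp17a1, Egr1, Fgf21, Acot1, Obp2a and the other list members given were picked with their values in view. The members and gene lists were chosen with earlier results of these data known. Lists are described by counts and medians, with no test. Groups followed the labels, with 1 alternative added after seeing the data, in which AL SIRT1-/- replicate 1 counts as AL SIRT1+/-. Sequences came from RefSeq, in which 29 of the 33 named genes had a promoter entry. As 12 alternatives, the fit was repeated with quantile normalization, with neqc at an offset of 16, on the deposited score, and with no detection filter, a detection p under 0.01, detection within the compared livers, the mean of a gene's probes, only the compared groups, only libraries with a Y-linked transcript (11), array weights, the replicate number as a block and an intensity trend, beside 18 fits that each leave out 1 library.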

Additional observations from a re-analysis of the deposited data

Results flagged for a closer look

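In the 4 AL SIRT1-/- livers, the only group large enough for the check, 4 of the 33 named genes had 1 library that stood apart from the rest by Dixon's criterion, which flags about 1 in 20 groups by chance. Capg was -0.32 in replicate 3, against -0.10, -0.07 and -0.09. Serpina12 was -0.46 in replicate 2, against -1.15, -1.22 and -1.27, so all 4 null livers still lay below the 3 AL wild-type livers. Sirt2 was 1.34 in replicate 3, against 1.02, 1.03 and 1.03, above every AL wild-type liver. Slc51b was -0.12 in replicate 3, against 0.39, 0.37 and 0.43. None of these libraries belongs to the SIRT1+/- or SIRT1+/+ groups.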

How the results depend on the processing

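No gene was called between SIRT1+/- and SIRT1+/+ livers on AL under any of the 12 alternatives or with any 1 of the 18 libraries left out. The count at an unadjusted p under 0.05, 99, was 315 with no detection filter, 253 with only the compared groups in the fit, 393 with array quality weights, 146 with neqc, and 61 without AL SIRT1+/+ replicate 3 to 193 without AL SIRT1+/+ replicate 1. The count of genes called different between the diets, 0, was 2 in libraries with a Y-linked transcript (Cyp4a12a and Hspb1) and ranged from 0 to 2 over the left-out libraries, with 2 (Cyp4a12a and Gm4956) without CR SIRT1+/- replicate 2. Of 1076 values of named genes, 1073 kept their direction and side of the threshold, but much of this was fixed in advance. Leaving out a library outside the AL SIRT1+/+ and AL SIRT1+/- groups leaves the AL means of a probe as they were. Many named genes were picked because these groups did not overlap, so leaving out 1 AL library cannot reverse their sign. The count is therefore little evidence of stability. Irs2 turned to -0.431 without AL SIRT1+/+ replicate 2 and to -0.147 without AL SIRT1+/- replicate 2, and Sirt7 ranged from -0.337 to 0.203, the value without AL SIRT1+/- replicate 1. The cause was not tested. Over the alternatives Sirt1 differed by -0.225 to -0.161 and Serpina12 by -3.84 to -1.83, with adjusted p for Serpina12 from 0.159 to 0.9999 when left-out libraries are counted. With the replicate number as a block (replicate block), 0 genes were called and Sirt1 differed by -0.217. Deviations of same-numbered libraries had r of -0.0349 and -0.097. With 2 SIRT1+/- libraries the deviations from their mean mirror each other, so these values cannot decide whether the numbers pair the livers. Of 1080 list medians, 34 in 19 lists moved by more than the spread between libraries, and 68 in 21 lists had the other sign. The hepatocyte median of 0.377 was 0.0798 with neqc and 0.0791 with quantile normalization. With AL SIRT1-/- replicate 1 counted as AL SIRT1+/-, chosen after seeing the data, 0 genes were called on AL or between the diets, 176 had an unadjusted p under 0.05 on AL and Sirt1 differed by -0.222. Dim probes give only bounds.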

Other observations

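Within the genotypes some genes varied widely, and 29 genes differed by more than 2 between the 2 heterozygous livers, among them Cyp2b9, a female-biased cytochrome P450 gene that read 2.00 in replicate 1 and -1.18 in replicate 2, and Cyp17a1. In AL SIRT1+/+ livers, 51 genes ranged over more than 2, Noct and Bdh2 included, and for 8 of these 51 the group means lay more than 1 apart. Complement and coagulation genes, secreted by hepatocytes, had 18 higher and 10 lower means of 28 in SIRT1+/- livers (median 0.104), and xenobiotic metabolism genes 26 and 14 of 40 (median 0.0469). Genes of glycolysis, glycogen and insulin signalling were divided into 13 and 13 of 26 (median -0.0102), glucocorticoid and fasting genes into 9 and 10 of 19 (median -0.0103), and cell cycle genes into 7 and 12 of 19 (median -0.0938). Of 19 genes that the study chose for RT-qPCR from these samples, and which are therefore no independent evidence of a direction, 8 had higher and 11 lower means (median -0.0185). No gene of these lists was called.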
